A study of Mus musculus with 2 samples.

Results

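The 9 genes Kirrel2, Kirrel3, Ncam1, Ncam2, Pcdh10, Pcdh17, Pcdh19, Tenm2 and Tenm4 encode cell surface adhesion proteins linked to the sorting of olfactory axons. They were taken by name from the 21755 protein-coding genes that GENCODE M21 places on the 20 chromosomes of the boundary list, and all 9 were found. For each gene the chromosome boundaries on either side of the gene body and inside it were read, with their strength and the genes that share the intervals between them. The cells were mature olfactory sensory neurons (mOSNs) sorted by FACS from adult olfactory epithelium, of mice of mixed sex whose strain the labels do not specify. They carried a conditional Ldb1 knockout made with OMP-Cre, so that the cofactor Ldb1 is removed only once a neuron has switched on Omp, a gene of mature olfactory neurons. In situ Hi-C, which ligates and counts DNA ends that lie close together in fixed nuclei, was done on 2 biological replicates of 1000000 cells, and there was 1 group and no control group here. Boundaries were called on the pooled contacts of both replicates, so each value below is a single value without replicate error, no difference could be tested, and the contacts behind each boundary are unknown. A boundary list holds no expression values, so neither the loss of Ldb1 nor the cell type could be checked against marker genes.

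Each mOSN expresses 1 type of olfactory receptor and sends its axon to the olfactory bulb, where axons of neurons with the same receptor gather in the same glomeruli. Adhesion molecules whose levels depend on the receptor and on neuronal activity act in this local sorting. Kirrel2 and Kirrel3 are homophilic immunoglobulin proteins produced in complementary sets of neurons. Pcdh10, Pcdh17 and Pcdh19 are non-clustered protocadherins of the delta-2 group, Ncam1 and Ncam2 (also called OCAM) are neural cell adhesion molecules, and Tenm2 and Tenm4 are teneurins, large transmembrane proteins that bind partners on other cells.

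A boundary is a 5 kb bin that few contacts cross. The strength is the authors' own score, and their strong class began at 0.5 and their weak class ended below it, with 0.2001 as the lowest score kept. Of 7610 boundaries 52.9% were strong, and the median strength was 0.538. An interval is the stretch between the midpoints of neighbouring boundaries. The flanks of a gene are the first boundaries outside its body on the 5′ (upstream) and 3′ (downstream) side, and TSS is the 5′ end of the gene in GENCODE M21. The 9 genes had 27 such boundaries, 18 flanking and 9 inside gene bodies, and no boundary belonged to more than 1 gene. Of the 27, 15 (55.6%) were strong, close to the share in the whole list.

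**Figure D1:**
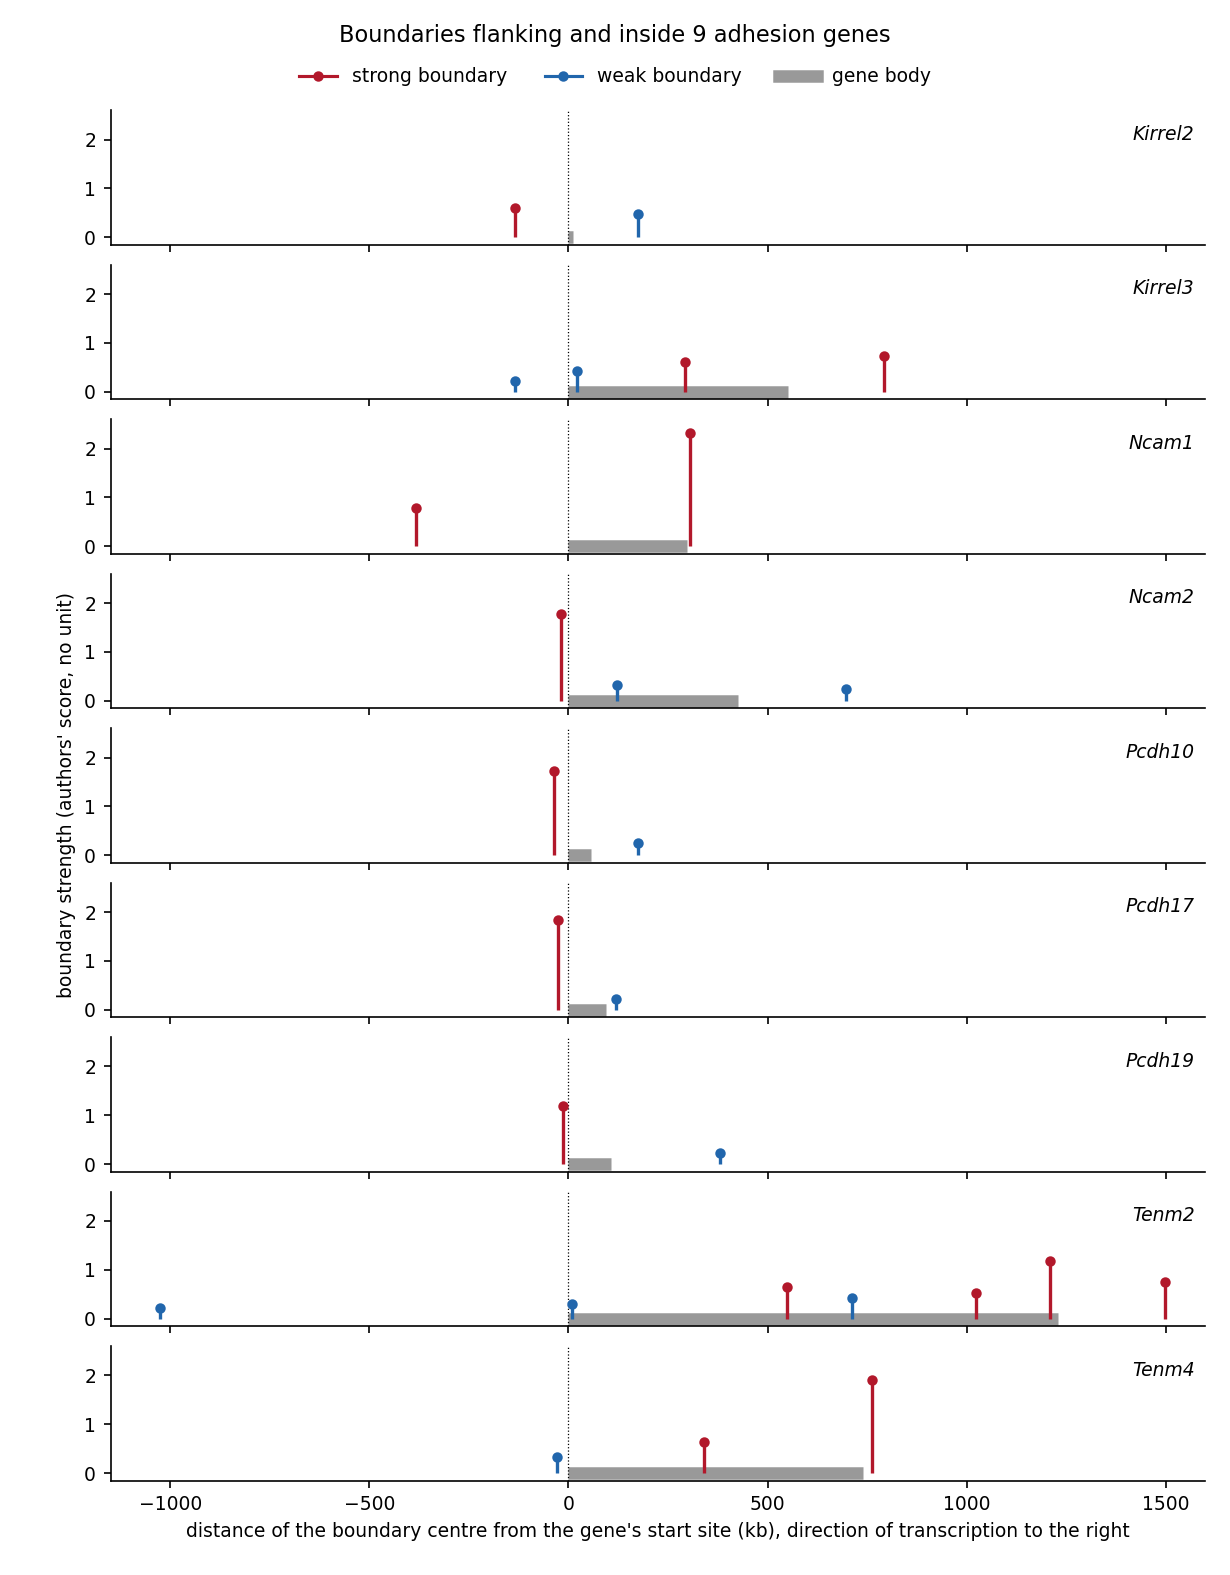
Boundaries around each gene, drawn with the start site at 0 and transcription to the right. The x axis gives the distance of the boundary centre from the start site in kb and the y axis the authors' strength score; each line is 1 boundary (red strong, blue weak) and the grey bar is the gene body. The 3 protocadherins and Ncam2 have a strong boundary just left of the start site, Ncam1 and Tenm4 have their strongest boundary just past the 3′ end, and Tenm2 has 5 boundaries inside its body.

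A CTCF consensus lay near 7 of the 27 boundaries, at Ncam1, Ncam2, Kirrel3 and Tenm2. CTCF is the zinc finger protein that halts loop extrusion by cohesin when its motif faces the oncoming loop. The CTCF core consensus of 12 bases was searched on both strands within 10 kb of each bin. The share of 25.9% (exact 95% interval 11.1 to 46.3%, counting error only) was close to the 24.4% of all boundaries, against 11.0% of all 5 kb bins of the genome. The exact interval treats the 27 boundaries as independent, although Tenm2 alone had 7 of them. The 7 matches are shown because their strand says which way each faces. Each line is printed 5′ to 3′ on the strand of the match (GRCm38), with the 12 matched bases in capitals and 20 bases on each side, and none of the matches lay wholly in soft-masked repeats.
Ncam1 3′ flank, chr9:49494100-49494151, forward strand: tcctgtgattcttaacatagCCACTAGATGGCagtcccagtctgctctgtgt
Ncam1 5′ flank, chr9:50172254-50172305, reverse strand: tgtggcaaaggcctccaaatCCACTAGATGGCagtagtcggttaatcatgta
Ncam2 inside, chr16:81330705-81330756, forward strand: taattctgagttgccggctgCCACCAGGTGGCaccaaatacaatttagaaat
Kirrel3 3′ flank, chr9:35282605-35282656, forward strand: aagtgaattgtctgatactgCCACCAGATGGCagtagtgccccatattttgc
Tenm2 3′ flank, chr11:35740361-35740412, reverse strand: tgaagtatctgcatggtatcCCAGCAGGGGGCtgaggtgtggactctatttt
Tenm2 inside, chr11:36526568-36526619, reverse strand: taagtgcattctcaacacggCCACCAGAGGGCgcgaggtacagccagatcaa
Tenm2 5′ flank, chr11:38270862-38270913, reverse strand: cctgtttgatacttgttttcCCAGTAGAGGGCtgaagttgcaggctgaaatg
A match is a run of letters and not a measurement of binding. Of the 27 boundaries 1 had a match inside the bin (6.28% of all boundaries), and 11 had one within 25 kb (38.5%). A looser form of the consensus, with any base at the 2 positions after CCA, lay within 10 kb of 14 of them, against 63.4% of all boundaries.

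The 3 protocadherins shared a layout in which a strong boundary stood shortly upstream of the TSS and a boundary near the lowest score stood downstream. Pcdh10 (ENSMUSG00000049100.15; chromosome 3, 45378398 to 45435623, forward strand) had a boundary of strength 1.72 at 45340001 to 45345000, 33.4 kb upstream of its TSS. The boundary on its 3′ side had a strength of 0.242 and lay 114 kb past the gene end. Pcdh17 (ENSMUSG00000035566.7; chromosome 14, 84443563 to 84539002, forward strand) had a 5′ flank of 1.84 at 84415001 to 84420000, 23.6 kb upstream, and a 3′ flank of 0.215, 20.999 kb past its end. Thus both autosomal protocadherins had a 5′ flank stronger than 94.6% and 95.9% of all boundaries and a 3′ flank that only 12.02% and 4.57% fell below.

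Pcdh19, the X-linked member, had the same layout at a lower strength. The gene (ENSMUSG00000051323.16; chromosome X, 133582860 to 133688987, reverse strand) had a 5′ flank of 1.20 at 133700001 to 133705000, 11.01 kb upstream of its TSS. That bin overlapped an exon of Gm26851, a long noncoding RNA gene. Its 3′ flank of 0.227 lay 273 kb past the gene end. On chromosome X 28.8% of 424 boundaries were strong, and 95.8% were weaker than the 5′ flank of Pcdh19, compared with 84.7% in the whole list.

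None of the 3 protocadherins had a boundary inside its body, which measured 57.2 kb for Pcdh10, 95.4 kb for Pcdh17 and 106 kb for Pcdh19. Only 16.2% of all protein-coding genes had one inside, and 35.4% of those of 100 to 200 kb. The intervals of these 3 genes measured 210, 145 and 395 kb and each held the whole gene. No CTCF consensus lay within 10 kb of their 6 flanks. Of all boundaries 24.4% had one. None of the 6 flanks had a consensus within 25 kb either, against 38.5% of all boundaries. The looser form was also absent within 10 kb of all 6, against 63.4% of all boundaries with it. How unusual this is was not tested. The consensus matches nearest to the strong 5′ flanks were 427 kb (Pcdh10), 458 kb (Pcdh17) and 295 kb (Pcdh19) away. This says only that these letters are absent there. The 3′ ends of these intervals rest on boundaries close to the lowest score of the list. With boundaries of at least 0.3 alone the intervals were 910, 1155 and 755 kb, and the 3′ flank of Pcdh17 was then a strong one of 0.797.

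Ncam2, which marks a zone of the epithelium, was laid out like the protocadherins at its 5′ end, whereas Ncam1 had its strongest boundary past the 3′ end. Ncam2 (ENSMUSG00000022762.18; chromosome 16, 81200697 to 81626828, forward strand) had a 5′ flank of 1.77 at 81180001 to 81185000, 15.7 kb upstream of its TSS. An intronic boundary of 0.321 lay at 81320001 to 81325000, 119 kb into the gene, with the CTCF match shown above 5.73 kb from its bin and facing away from the TSS. The 3′ flank of 0.244 lay 268 kb past the gene end. The TSS interval of Ncam2, at 140 kb, was the shortest of the 9 and held 28.6% of the gene body.

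Ncam1 (ENSMUSG00000039542.16; chromosome 9, 49502136 to 49798925, reverse strand) was flanked by strong boundaries on both sides and had none inside its 297 kb. Its 3′ flank of 2.32 at 49490001 to 49495000 was the strongest of the 27 boundaries and the 93rd of the whole list. It lay 7.14 kb past the 3′ end of Ncam1 and 3.78 kb from the TSS of Ttc12, the next gene. The 5′ flank of 0.785 was at 50180001 to 50185000, 381 kb upstream of the TSS. Ncam1 was the only one of the 9 genes with a CTCF consensus within 10 kb of both ends of its TSS interval, which measured 690 kb and contained the whole gene. The match at the 3′ flank lay inside the bin and the one at the 5′ flank 7.72 kb from its bin, and both faced the TSS of Ncam1. The 12 matched bases were identical at both ends. The interval of Ncam1 was also the only one of the 9 that kept its length with strong boundaries alone, and its TSS was the farthest of the 9 from any boundary (304 kb).

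**Figure D2:**
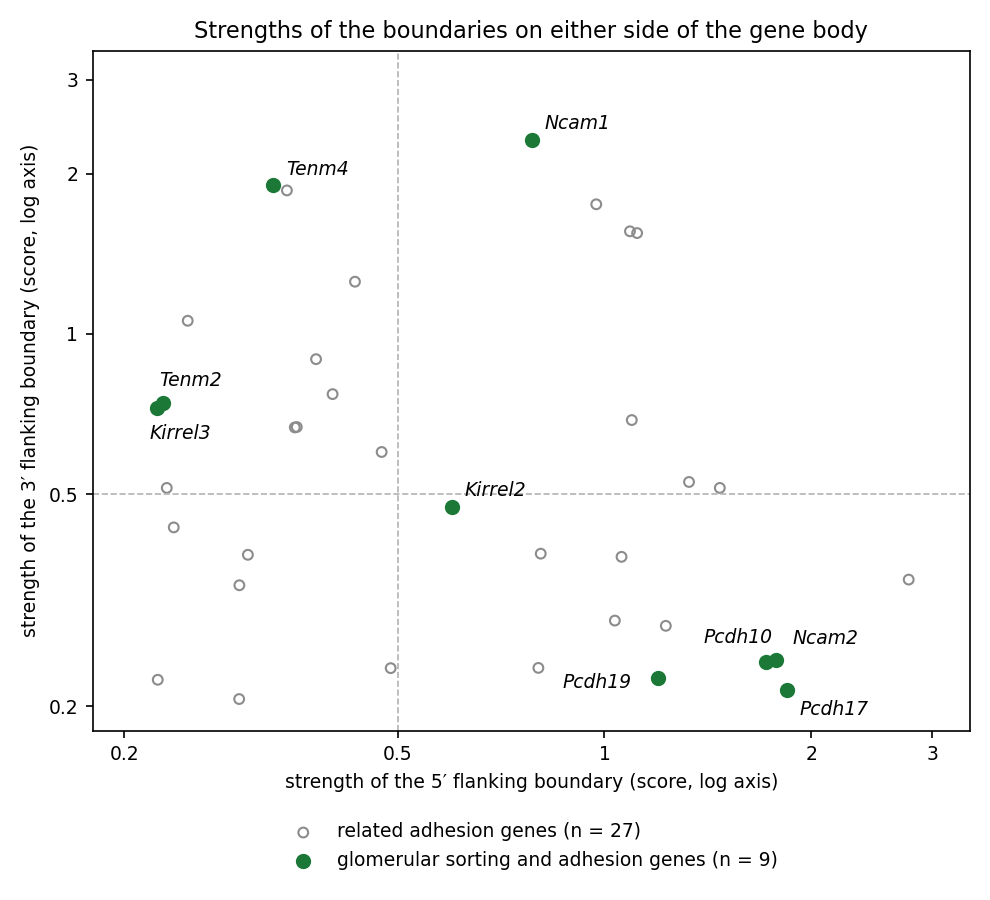
Strength of the 5′ flank (x axis) against the 3′ flank (y axis), both as the authors' score on log axes. Filled points are the 9 genes, open circles the 27 related adhesion genes, and dashed lines mark the score of 0.5 that separates the classes. Pcdh10, Pcdh17, Pcdh19 and Ncam2 sit at the lower right (5′ flank 1.20 to 1.84, 3′ flank 0.215 to 0.244), while Tenm4, Tenm2 and Kirrel3 sit at the upper left.

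The teneurins were long genes cut by boundaries, with a weak boundary at the 5′ side and a strong one at the 3′ side. Tenm4 (ENSMUSG00000048078.16; chromosome 7, 96171246 to 96911093, forward strand) had a 5′ flank of 0.330, 26.2 kb upstream of its TSS. An intronic boundary of 0.637 lay at 96510001 to 96515000, and a 3′ flank of 1.90 at 96930001 to 96935000, 18.9 kb past the gene end and 16.5 kb from the TSS of Nars2, which encodes a mitochondrial tRNA synthetase. The intronic boundary was 339 kb from the TSS but 7.40 kb from the start of the short transcript Tenm4-205. The interval of the TSS, 370 kb, held 46.1% of the gene body.

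Tenm2 (ENSMUSG00000049336.16; chromosome 11, 36006656 to 37235964, reverse strand) was the longest of the 9 genes at 1229 kb and had 5 boundaries inside. From the 5′ to the 3′ end their strengths were 0.310, 0.654, 0.431, 0.517 and 1.18. The last of these, at 36025001 to 36030000, overlapped an exon of Tenm2 near its 3′ end, and the others were intronic. Among 99 protein-coding genes over 800 kb the mean was 2.53 boundaries inside, and 89 of them had fewer than Tenm2. The flanks of Tenm2 were a weak one of 0.228, 1024 kb upstream, and a strong one of 0.743, 267 kb past the 3′ end.

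Tenm2 was also the only gene of the 9 with a boundary within 10 kb of the TSS, and that depended on which start was used. The longest transcript, Tenm2-202, starts 5.88 kb from the weak intronic boundary of 0.310. The transcripts Tenm2-201 and Tenm2-208 start at 36944166, 254 kb from any boundary, in the next interval of 540 kb between boundaries of 0.654 and 0.310. Of all protein-coding TSSs 14.3% lay within 10 kb of a boundary, so the count of 1 of 9 (11.1%, exact 95% interval 0.281 to 48.2%) is near that background. No member TSS lay inside a boundary bin, against 3.86% of all genes, and 5 lay within 25 kb of a bin, against 26.5%.

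The 3 CTCF matches of Tenm2 were all on the reverse strand, the strand of the gene. The match at the 5′ flank faced the TSS, and those at the intronic boundary of 0.431 and at the 3′ flank faced away from it.

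The Kirrel genes differed most from each other in their surroundings. Kirrel3 (ENSMUSG00000032036.15; chromosome 9, 34485894 to 35036716, forward strand) spanned 551 kb and had a weak boundary of 0.425 at 34505001 to 34510000, 19.1 kb into the gene, and a strong one of 0.614 at 34775001 to 34780000. Both were intronic. Its 5′ flank was weak (0.224, 131 kb upstream), and its 3′ flank of 0.726 lay 238 kb past the gene end in an exon of Rpusd4, with a CTCF match 2.63 kb from the bin that faced away from Kirrel3. The interval of the TSS was 155 kb and held 3.92% of the gene body. The short transcript Kirrel3-207 starts near the 3′ end of the gene in another interval, of 500 kb.

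Kirrel2 (ENSMUSG00000036915.17; chromosome 7, 30447534 to 30457690, reverse strand) was the shortest gene at 10.2 kb and the only one in a gene-rich interval. Its interval of 310 kb held 21 other protein-coding TSSs. The nearest was that of Nphs1, which encodes nephrin, a binding partner of Kirrel proteins in the kidney filter. It starts 0.624 kb upstream on the opposite strand and so shares the interval and both its boundaries. The others closest were Aplp1, which encodes an amyloid precursor-like protein and lies 1.998 kb past the 3′ end of Kirrel2, then Prodh2, Nfkbid and Hcst. The 5′ flank of 0.6004 lay 132 kb upstream in an exon of Zbtb32, and the 3′ flank of 0.474 lay 163 kb away in exons of Wdr62 and Thap8, whose bin also held the TSS of Wdr62. No CTCF consensus lay within 10 kb of either.

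Apart from Kirrel2, the genes stood alone. In 8 of the 9 intervals (88.9%, exact 95% interval 51.8 to 99.7%) the member's TSS was the only protein-coding one, against 8.90% of all protein-coding genes that lie between boundaries. Long genes stand alone more often. The 6 members of at least 100 kb were all alone, against 38.6% of protein-coding genes of at least 100 kb. Those genes had a median length of 169 kb and these members ran from 106 to 1229 kb, so length was not closely matched. Of the 3 shorter members Pcdh10 and Pcdh17 were alone, against 5.04% of genes under 100 kb. Noncoding genes were present in every one of the 9 intervals, from 1 in those of Kirrel3 and Pcdh17 to 8 in that of Kirrel2.

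The nearest protein-coding genes were far away for several members. No other protein-coding TSS lay within 500 kb of 6 of the 9 TSSs (Kirrel3, Ncam2, Pcdh10, Pcdh17, Tenm2 and Tenm4), against 1.32% of all protein-coding genes. That share is not matched for gene length. The bodies of Kirrel3, Tenm2 and Tenm4 (551, 1229 and 740 kb) themselves fill the 500 kb downstream of the TSS. Upstream, Pcdh17 was 4420 kb from Olfm4, Pcdh10 3575 kb from D3Ertd751e, Tenm2 3443 kb from Mat2b, Tenm4 3089 kb from Fam181b, Ncam2 2110 kb from Tmprss15 and Kirrel3 1728 kb from Ets1. Downstream, Pcdh19 was 3117 kb from Diaph2, Pcdh17 2116 kb from Diaph3, Ncam2 1202 kb from Gm21833 and Pcdh10 1007 kb from Pabpc4l.

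The 3′ neighbours of the other genes were close. St3gal4 was 9.86 kb from Kirrel3, Ttc12 15.9 kb from Ncam1, Wwc1 26.1 kb from Tenm2 and Nars2 40.4 kb from Tenm4. The strong 3′ boundaries of Ncam1 and Tenm4 stood in these short gaps. No boundary stood in the gaps between Kirrel3 and St3gal4 or between Tenm2 and Wwc1. The strong boundary of 1.18 inside Tenm2, near its 3′ end, lay 44.5 kb from the TSS of Wwc1. On the 5′ side Ncam1 was 545 kb from Rpl10-ps3, and Pcdh19 was 162 kb from Tnmd, with its strong boundary between them.

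The intervals of the 9 genes ran from 140 kb (Ncam2) to 1035 kb (Tenm2), with a median of 310 kb, against 275 kb for all protein-coding genes. The interval of Tenm2 lay almost wholly upstream of its TSS and held 0.689% of the gene body. The intervals of Ncam2, Pcdh17 and Kirrel3 were longer than those of 6.64%, 7.78% and 11.02% of genes, and those of Ncam1 and Tenm2 longer than 90.2% and 96.1%. The median distance from the TSS to the nearest boundary was 23.6 kb, against 56.6 kb for all protein-coding genes. Kirrel2 and Ncam1 were the only members above that value of all genes. Both medians rest on the weak boundaries. With strong boundaries alone the median distance was 132 kb for the members and 101 kb for all genes, so that the order turned, and the median interval was 2300 kb against 470 kb. With scores of at least 0.3 the median interval was 690 kb against 335 kb, and the median distance of the members stayed at 23.6 kb against 68.7 kb.

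**Figure D3:**
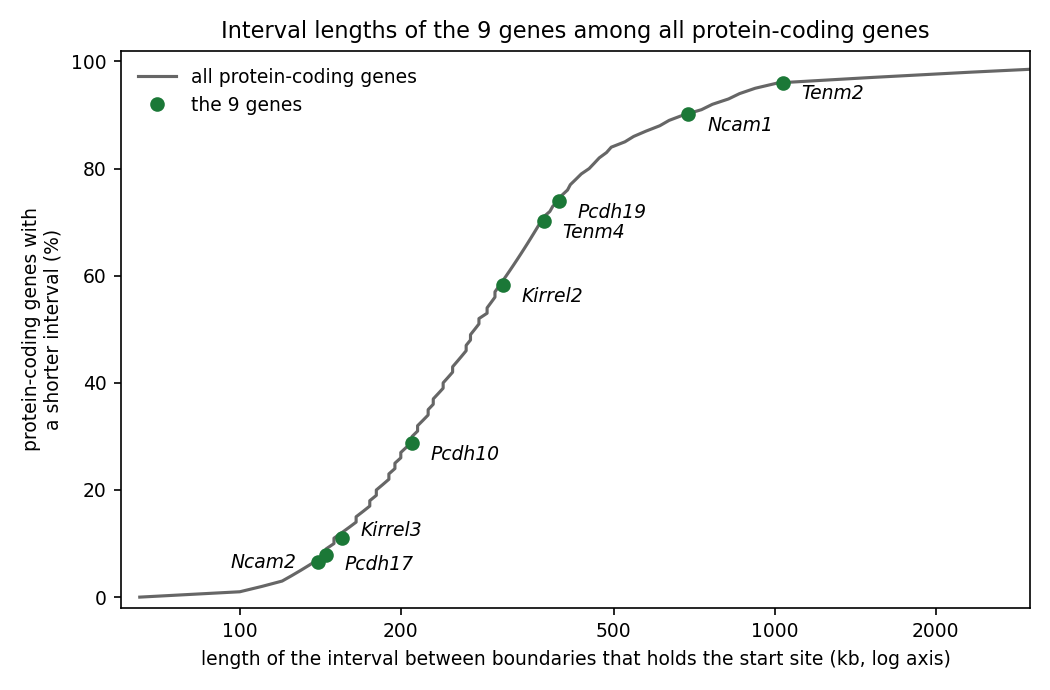
Length of the interval that holds each TSS (x axis, kb, log scale) against the share of protein-coding genes with a shorter interval (y axis, percent). The line is the distribution over all protein-coding genes and the points are the 9 genes, which run from 140 kb for Ncam2 to 1035 kb for Tenm2 with no common length.

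The intervals also differed in base composition. The GC content of the 9 intervals ran from 35.9% (Ncam2) to 50.4% (Kirrel2), and 5 of them were below the median of 42.5% of all 7590 intervals. Those 5 were Ncam2, Pcdh17, Pcdh10, Tenm2 and Pcdh19, and the other 4 lay between 43.3 and 50.4%. The soft-masked share was lowest for Kirrel3 and Ncam1 (19.7 and 20.01%, against a median of 30.7%). No interval contained assembly gaps. The part that base composition plays in where boundaries were called was not tested.

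Counted over the 9 genes, 5 had a strong 5′ and a weak 3′ flank (Kirrel2, Ncam2 and the 3 protocadherins), 3 had a weak 5′ and a strong 3′ flank (Kirrel3, Tenm2 and Tenm4), and Ncam1 had strong flanks on both sides. Of all protein-coding genes with both flanks 24.6% had the first layout, 23.8% the second and 37.6% the third. A strong 5′ flank within 35 kb together with a weak 3′ flank was found for 4 of the 9 genes and for 4.54% of all genes. This distance and this layout were chosen after the values of the members were seen, so the counts only describe these genes.

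Summed over the 9 genes, boundaries inside gene bodies were about as frequent as in other long genes, but Tenm2 held 5 of the 9. The gene bodies summed to 3.51 Mb and held 9 boundaries, or 2.56 per Mb. The rate was 2.39 per Mb in protein-coding genes of 100 kb or more, although 3 of the 9 members are shorter. In all protein-coding genes it was 3.59 per Mb. Of the 6 members of at least 100 kb, 4 had at least 1 boundary inside (Kirrel3 2, Ncam2 1, Tenm2 5, Tenm4 1), against 48.5% of such genes. That share rises with length, and these 4 are all over 400 kb. It was 35.4% at 100 to 200 kb (the class of Pcdh19) and 61.2% at 200 to 400 kb (Ncam1). At 400 to 800 kb (Kirrel3, Ncam2 and Tenm4) it was 75.3%, and over 800 kb (Tenm2) 93.9%. Ncam1 and Pcdh19 had none. Without Tenm2 there were 4 boundaries inside. Per Mb of its own body Tenm2 had 4.07 and Kirrel3 3.63, while Ncam2 had 2.35 and Tenm4 1.35. The 9 boundaries inside had a median strength of 0.517, and 8 of them were intronic. The intronic share over all protein-coding genes was not counted, so this only describes these boundaries.

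**Figure D4:**
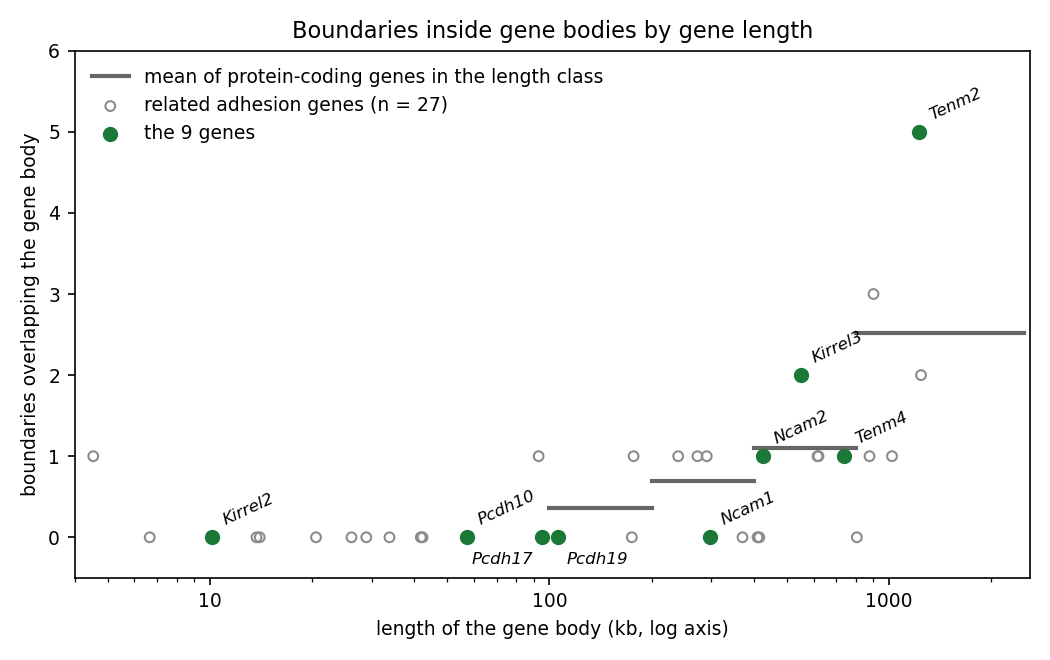
Number of boundaries that overlap the gene body (y axis) against the length of the body (x axis, kb, log scale). Filled points are the 9 genes, open circles the 27 related genes, and grey lines the mean over all protein-coding genes of a length class from 100 kb up. Tenm2 with 5 lies above the mean of 2.53 for genes over 800 kb, while Ncam2 and Tenm4 with 1 each lie close to the mean of 1.10 for 400 to 800 kb. Kirrel3, of the same length class, lies above that mean with 2.

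Other adhesion genes of the same families and their partners were set beside the 9. This list of 27 genes held Kirrel, the nephrin gene Nphs1, 7 other protocadherins, the teneurins Tenm1 and Tenm3, their latrophilin and Flrt partners, contactins and L1 family genes. Of the 27 TSSs 4 lay within 10 kb of a boundary, against the 14.3% of all genes. They were Pcdh9 (boundary 2.77), Adgrl3 (1.23), Adgrl1 (0.808) and Pcdh8, whose TSS lay inside a boundary bin of 0.784. In 17 of the 27 the TSS was alone in its interval (63.0%, against the 8.90% of all genes). Of the 15 that measured at least 100 kb 12 were alone, against 38.6% of genes of at least 100 kb, again not closely matched for length. Of the 12 shorter ones 5 were alone, against 5.04%. No other protein-coding TSS lay within 500 kb of 13 of the 27, against 1.32% of all genes, a share again not matched for gene length. The median interval of the 27 was 410.0 kb.

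The teneurin layout recurred in Tenm3 and in part in Tenm1. Tenm3 had 1 boundary inside, a weak 5′ flank of 0.248 and a strong 3′ flank of 1.06. Tenm1 on chromosome X had 3 boundaries inside, the most of the 27 related genes, but weak flanks on both sides (each 0.224). All 4 teneurin genes thus had a weak 5′ flank and at least 1 boundary inside. A boundary inside is usual at their lengths, found in 75.3% of protein-coding genes of 400 to 800 kb and 93.9% over 800 kb. Of all protein-coding genes with both flanks, 23.8% had a weak 5′ and a strong 3′ flank, and 3014 of 21543 had 2 weak ones. Among the 27 related genes Cntn5 followed Tenm1 with 2 boundaries inside, and the remaining genes had at most 1.

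Of the 7 other protocadherins, Pcdh9 and Pcdh7 also had a strong 5′ flank within 35 kb and a weak 3′ flank, though the 3′ flanks were above those of Pcdh10, Pcdh17 and Pcdh19. The 5′ flank of Pcdh9 was 2.77 at 9.32 kb and its 3′ flank 0.346, and it had 1 boundary inside its body. The 5′ flank of Pcdh7 was 1.04 at 32.97 kb and its 3′ flank 0.290. Pcdh11x, Pcdh18 and Pcdh20 had weak flanks on both sides, and Pcdh1 and Pcdh8 strong ones. A strong 5′ flank within 35 kb and a weak 3′ flank were also found in Adgrl1 (3′ flank 0.387) and Adgrl3 (0.283), which made 4 of the 27 genes.

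By interval length, the closest related gene was Nphs1 for Kirrel2 (the same interval), Nfasc for Ncam2 (140 kb), Tenm3 for Pcdh19 (395 kb) and Cntn1 for Tenm4 (350 kb). It was Adgrl3 for Tenm2 (1055 kb), Adgrl2 for Ncam1 (665 kb), Pcdh11x for Pcdh10 (235 kb), and Flrt2 for both Kirrel3 and Pcdh17 (150 kb). Likeness here is the difference of log2 interval length among the 27 genes. The longest intervals of that list were those of Flrt3 (1795 kb), Cntn6 (1265 kb) and Cntn3 (1205 kb).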

How the data were processed

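In situ Hi-C was done on 2 replicates of Ldb1-knockout mOSNs with DpnII and 1% formaldehyde, per the labels. The authors combined both replicates into 1 GRCm38 contact matrix and called boundaries on it, per the labels' design text. The deposited strength score and class of each 5 kb bin were used as given. Not given in the sources used here are the caller, its window and its mask.

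Genes, transcripts and exons came from GENCODE M21 and sequence from the GRCm38.p6 assembly. Distances run from the TSS to the nearest edge of a bin. A boundary was inside a gene if its bin overlapped the body by at least 1 base. Motif matches were soft-masked if all 12 bases were. Values were computed with pandas 2.3.3, scipy 1.17.1 and numpy 2.4.6 under Python 3.11.15, figures were drawn with matplotlib 3.10.9, and the interval arithmetic was tested on planted boundaries. No test was made, because 1 pooled list has no replicates. Exact binomial intervals treat genes as independent, or boundaries for the CTCF share, although several boundaries belong to the same gene.

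The members and lists were chosen with earlier results of these data known. All 9 members were named, with their nearest neighbours and up to 5 genes of the interval. Of the related genes, those with the 3 strongest boundaries at the TSS, the 3 longest intervals and the 3 highest counts inside were named (ties unnamed), as was the gene closest in interval length. Teneurins and protocadherins were also named after their values were seen. Of the related list as set out, 1 gene is not reported here and entered no count.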

Additional observations from a re-analysis of the deposited data

How the results depend on the processing

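No paired analysis was possible because both libraries belong to 1 group. Calling on the pooled contacts also left no replicate to omit. A value counted as changed when it moved by over 1.5 times. With strong boundaries alone, no member TSS lay within 10 kb of a boundary (0 of 9), and the median distance to a boundary was 132 kb. The median interval was then 2300 kb, 5 boundaries lay inside gene bodies and 5 members stood alone. Between strong boundaries alone, 3.61% of all protein-coding genes stood alone. With scores of at least 0.3 the median interval was 690 kb. The count of members at a boundary was 0 for TSSs inside the bin, 5 within 25 kb and 2 with any transcript start. Counting all genes except pseudogenes, 0 members stood alone. The shares of all protein-coding genes for this count and for any transcript start are not given here. Of the 27 boundaries, 1 had a CTCF consensus inside the bin, 11 had one within 25 kb, and 14 had a looser form within 10 kb. Of the 24 matches of the looser form 14 were in soft-masked repeats. Of the related genes 7 were at a boundary within 25 kb, against 26.5% of all protein-coding genes, and 8 with any transcript start. The count of members with a strong 5′ and a weak 3′ flank was 4 with scores of at least 0.3 and 5 with the ends of the TSS interval as flanks, both chosen after seeing the data. The interval lengths of single genes kept within 1.5 times in 5 of 18 alternatives.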

Other observations

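The immunoglobulin adhesion genes Cntn3, Chl1, Cntn6 and Cntn4, which encode contactins and a relative of L1, follow each other on chromosome 6 with each TSS alone in its own interval. The intervals measured 1205, 495, 1265 and 455 kb. Between the TSSs of Chl1 and Cntn6 stood a strong boundary of 0.906 inside the body of Chl1, 229 kb from its TSS, and a weak one of 0.236 upstream of Cntn6. Cntn6 and Cntn4 were separated by a weak one of 0.433, which lay 17.7 kb upstream of Cntn4. The 3′ flanks of Cntn3 and Cntn4 were strong (1.86 and 1.25). Of all 6 contactin genes 4 had a weak 5′ and a strong 3′ flank, the layout of Tenm2, Tenm4 and Kirrel3, against 23.8% of all protein-coding genes. These genes were picked out after their values were seen, and the counts describe them only.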
